A study of Homo sapiens with 6 samples.

Results

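EDN1, NRP2 and HEG1 are 3 genes of vessel biology that PANC-1 cells, an epithelial line from a human pancreatic ductal carcinoma, also transcribe. They were picked by symbol from a table of 995 genes, with their difference between control and shSTYK1 cells in view, so that difference is described below and not tested. The table covers poly(A)-selected RNA of control PANC-1 cells (3 libraries) and of PANC-1 cells that stably carry a lentiviral shRNA against the kinase gene STYK1 (3 libraries). Per the methods, the cells were transduced with pLKO.1-puro, drug-resistant clones were isolated and expanded, and the replicates were biological. Neither the shRNA carried by the sequenced cells nor the content of the control vector is given, so differences that came with selecting the cells and those that came with losing STYK1 cannot be told apart. STYK1 is not in the table, so the knockdown cannot be checked in these libraries. The authors deposited a z-score per gene and library, from which the expression values behind the scores were recovered. They have 2 decimals, their unit is not stated, and the depth of the libraries is unknown. Levels are therefore compared within a gene only.

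EDN1 encodes the precursor of endothelin-1, a short peptide that endothelial cells secrete and that constricts vessels through the receptors EDNRA and EDNRB on neighbouring cells. NRP2 encodes neuropilin-2, a transmembrane co-receptor without a kinase of its own, which binds VEGF-C together with the lymphatic receptor FLT4 and binds class 3 semaphorins together with plexins. HEG1 encodes a long, heavily glycosylated receptor with a mucin-like outer part, whose cytoplasmic tail binds KRIT1 of the cerebral cavernous malformation (CCM) complex at endothelial junctions. All 3 are also made outside the endothelium, among others by carcinoma cells.

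EDN1 was lower in shSTYK1 than in control cells. The gene (ENSG00000078401) lies on the plus strand of chromosome 6, from 12290363 to 12297194 (GRCh38). Its recovered value was 30.84, 27.51 and 31.25 in the control libraries and 12.98, 9.45 and 12.15 in the shSTYK1 libraries. The groups did not overlap, and the second shSTYK1 library was the lowest of the 6. The mean was 29.9 ± 2.05 (SD, n = 3) in the controls and 2.59-fold lower, 11.5 ± 1.85 (SD, n = 3), in shSTYK1 cells. On the log2(value + 1) scale the fold change was -1.31, with a standard error of 0.15 from limma.

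The promoter of EDN1 holds letters that match well-known regulatory elements of this gene and is shown for that reason. The RefSeq sequence covers the 250 bases before the start that lies 2 bases from the GENCODE start of the gene (chr6:12290111-12290360, GRCh38.p14, plus strand) and overlaps no GENCODE exon. The promoter of HEG1, which changed in the other direction, is set beside it (chr3:125055998-125056247, minus strand). Capitals mark matches on either strand to 6 motifs. GATA factors are known to bind AGATAA. Sites of the hypoxia factor HIF have the core ACGTG, which also lies within the E-box. AP-1 binds TGANTCA, and a variant known from this promoter is TGACTAA, with no overlap between the spellings. For TCF/LEF factors, CTTTGA and the same letters with a final T were searched. The TATA box was searched as TATAAA. The letters were chosen with the EDN1 sequence in view.
EDN1: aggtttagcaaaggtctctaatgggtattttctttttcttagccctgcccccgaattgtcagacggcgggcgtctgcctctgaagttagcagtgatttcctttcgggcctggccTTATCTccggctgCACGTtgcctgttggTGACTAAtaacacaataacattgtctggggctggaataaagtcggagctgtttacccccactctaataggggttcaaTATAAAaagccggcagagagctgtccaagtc
HEG1: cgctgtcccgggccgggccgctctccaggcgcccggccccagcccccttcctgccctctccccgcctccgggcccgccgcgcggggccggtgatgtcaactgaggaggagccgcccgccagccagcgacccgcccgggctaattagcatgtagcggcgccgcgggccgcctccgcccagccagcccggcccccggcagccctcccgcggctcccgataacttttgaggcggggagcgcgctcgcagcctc
In EDN1, the GATA match began 136 bases before the start, the HIF core 123, the AP-1 variant 108 and the TATA box 31. Of 35116 RefSeq promoter windows of the same length, 9.17% held the GATA motif, 18.5% the HIF core, 1.62% the AP-1 variant and 10.7% the TATA box. The AP-1 motif (6.57% of windows) and the TCF/LEF motif (22.8%) had no match in the EDN1 window. The HEG1 window held none of the 6 motifs and was 78.4% G and C, against 49.2% in EDN1 and a median of 58% over all windows. The NRP2 window, which overlaps an annotated exon and is not printed, also held none and was 70% G and C. RefSeq gives EDN1 further starts, 349 and 2344 bases from the GENCODE start. The window of the first held no motif, and that of the second held the HIF core at 2 places and the TCF/LEF motif once. A match of letters is a description of these windows, and binding was not measured.

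NRP2 had the largest change of the 3 genes. It (ENSG00000118257) lies on the plus strand of chromosome 2, from 205681990 to 205798133. Its recovered value was 8.28, 8.31 and 7.44 in the control libraries and 0.82, 0.74 and 0.56 in the shSTYK1 libraries. Every shSTYK1 library was below 1, and the lowest control library was 9.07 times the highest shSTYK1 library. The mean was 0.707 ± 0.133 (SD, n = 3) with shSTYK1 against 8.01 ± 0.494 (SD, n = 3) in the controls, 11.3-fold lower, and the log2 fold change was -2.40 (standard error 0.12 from limma). The added 1 holds that value down, since the log2 ratio of the group means was -3.50. The recovered value + 1 is known up to a whole-number factor. With the smallest solution doubled, the means would be 17 and 2.41, and the difference would be 7.05-fold. NRP2 passed the filter on low values through its control libraries only. Its exons share 147 bases with the antisense gene AC007362.1, and the strand setting of the counting is not given, so reads within those bases cannot be told apart. The table gives NRP2 as a whole and not its splice forms.

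HEG1 was higher in shSTYK1 cells. It (ENSG00000173706) occupies 124965710 to 125055958 of chromosome 3, minus strand. Its recovered value was 17.63, 19.37 and 18.53 in the control libraries and 61.14, 60.65 and 62.65 in the shSTYK1 libraries. The libraries of a group lay close together, with 41.3 between the highest control and the lowest shSTYK1 library and at most 2 within a group. The mean was 61.5 ± 1.04 (SD, n = 3) with shSTYK1 against 18.5 ± 0.87 (SD, n = 3) in the controls, 3.32-fold higher, with a log2 fold change of 1.68 (standard error 0.11 from limma).

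Separated groups are the rule in this table. In all 3 genes no library of one group lay within the range of the other, which also held for 93.7% of the 995 genes (48.1% lower and 45.5% higher in shSTYK1 cells). The table is read here as genes selected by the authors on these same libraries. In limma on log2(value + 1), 329 of 740 genes tested (44.5%) were lower and 379 (51.2%) higher with an adjusted p-value under 0.05. The 3 genes were chosen on the same contrast, and nothing is read from their calls. By size, NRP2 ranked 23 and EDN1 122 among 338 genes with a negative log2 fold change, and HEG1 ranked 17 among 402 genes with a positive one. The spread within groups also differed between the 3 genes. The SD of HEG1 around its group means was 0.0486 on the log2 scale, and 2.16% of the 740 genes had a smaller one. NRP2 had 0.0989, with 12% of genes below it, and EDN1 0.171, with 37.6% below it; the median of all genes was 0.204. In the shSTYK1 cells the SD was 1.7% of the mean for HEG1, 16% for EDN1 and 18.8% for NRP2.

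**Figure D1:**
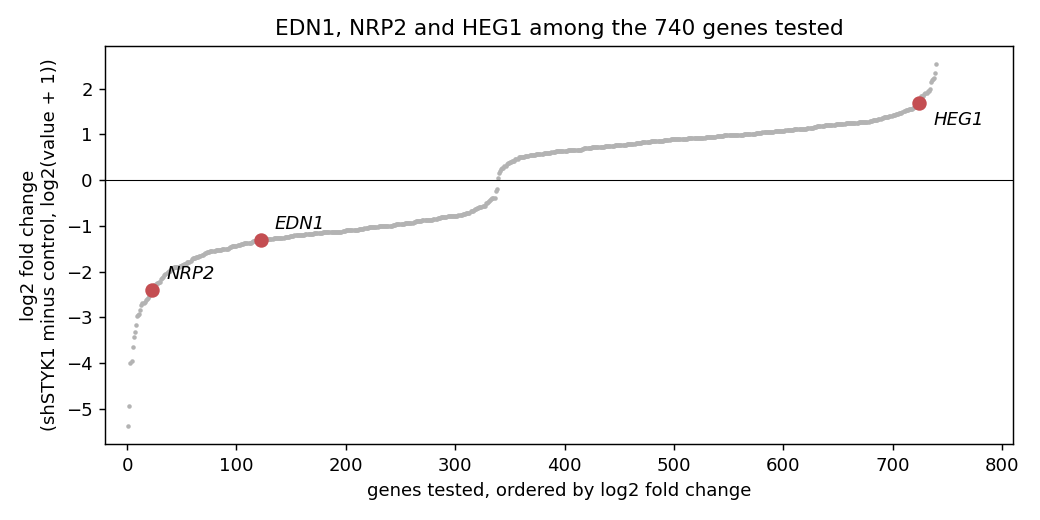
The 740 genes tested in order of log2 fold change (horizontal axis, rank) against its size (vertical axis, shSTYK1 minus control, log2(value + 1)). Red points are NRP2 (-2.40), EDN1 (-1.31) and HEG1 (1.68); few genes of the table lie near 0.

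The partners of the 3 genes were looked up in fixed lists of the endothelin system, the neuropilin, VEGF and semaphorin system, the HEG1 and CCM pathway, and other ligands and receptors of vessel formation. Beside the 3 genes, the lists name 95 genes, of which 9 are in the table. The 86 others have no value here, which does not show whether they changed. Of the 9 genes, 6 passed the filter on low values, and limma called 3 of them lower and 3 higher, against 95.7% of all 740 genes tested called in either direction. Of the 3 called lower, MME and EFNB2 passed the filter through their control libraries only, so the count supports nothing. Their median log2 fold change was -0.07, and that of all genes tested was 0.54. As the genes of the table were selected on these libraries, their p-values are not independent evidence of a change.

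In the endothelin system, both genes of the table were lower, without overlap of the groups, as were 48.1% of the 995 genes. They are the ligand gene EDN1, itself chosen on this contrast, and MME. MME encodes neprilysin, a cell-surface protease that cleaves endothelin-1 and other peptides. MME was at 1.36, 1.27 and 1.48 in the controls, against 0.06, 0.04 and 0.33 with shSTYK1. Its log2 fold change was -1.06 with a standard error of 0.14 from limma, and -2.79 with a pseudocount of 0.1 in place of 1. MME passed the filter through its control libraries only, so no p-value is given for it. The receptor genes EDNRA and EDNRB and the converting enzyme genes ECE1 and ECE2 are among the 7 list members without a row.

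Of the 23 genes of the neuropilin list, 4 are in the table. NRP2 and KDR were lower and the plexin genes PLXNA1 and PLXND1 higher, against 51.2% of all genes tested called higher, and the other plexin genes of the list have no row. Plexins are the signalling partners of neuropilins at semaphorin receptors. PLXNA1 was at 12.63, 23.79 and 16.56 in the controls, against 32.63, 35.70 and 32.08 with shSTYK1. Its control libraries differed by more than its shSTYK1 libraries did, and the groups did not overlap. The log2 fold change was 0.93 with a standard error of 0.21 (limma, adjusted p = 0.00319), and 0.54 when the libraries were rescaled by their median of ratios. PLXND1, the plexin known from endothelial guidance, was at 81.33, 107.02 and 77.46 in the controls, against 186.89, 211.48 and 182.06 with shSTYK1. It rose 2.18-fold, with a log2 fold change of 1.13 with a standard error of 0.16 (limma, adjusted p = 0.000277). After rescaling it was at 0.73, and with quantile normalization at 0.44. KDR, which encodes VEGF receptor 2, was below the filter, at 0.26, 0.54 and 0.44 in control libraries and listed at 0 in each shSTYK1 library. VEGFC, FLT4, NRP1 and the class 3 semaphorin genes have no row in the table. Of the HEG1 and CCM list, which holds KRIT1, CCM2, PDCD10, the RAP1 genes and KLF2 and KLF4, HEG1 alone has a row, so nothing can be said of its pathway.

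Among the other ligands and receptors, EFNB2 and BMP4 were lower and GDF15 was higher. EFNB2 encodes ephrin-B2, a membrane-bound ligand that marks arterial endothelium. Its mean was 3.66 ± 0.18 (SD, n = 3) in the controls and 0.583 ± 0.11 (SD, n = 3) with shSTYK1, with a log2 fold change of -1.56, or -2.47 with a pseudocount of 0.1. Like MME, it passed the filter through its control libraries only and is given no p-value. BMP4, a secreted ligand of the TGF-β family, fell from 15.6 ± 2.5 to 5.34 ± 1.18, with a log2 fold change of -1.39 (limma, adjusted p = 0.000205). GDF15, a stress-induced ligand of the same family, was at 102.58, 122.68 and 82.83 in the controls, against 251.92, 330.71 and 251.19 with shSTYK1. Its log2 fold change was 1.43 (limma, adjusted p = 0.000196), but 0.53 with quantile normalization (limma, adjusted p = 0.0557), where the call was lost. SLIT2 and NTN1, which encode guidance ligands of axons and vessels, were below the filter. SLIT2 was at 0.22, 0.19 and 0.26 in control libraries and listed at 0 in each shSTYK1 library. NTN1 was at 0.23, 0.41 and 0.22 in the controls, against 0.07, 0.11 and 0.05 with shSTYK1.

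Whether the libraries hold RNA of endothelial cells cannot be judged from this table, which has 2 of 21 endothelial marker genes, KDR and SOX18. PECAM1, CDH5 and VWF, which define endothelium, have no row. SOX18, an endothelial transcription factor, was at 1.90, 2.94 and 1.07 in the controls, against 0.87, 0.88 and 0.45 with shSTYK1. Its log2 fold change was -0.74 (limma, adjusted p = 0.0165) and, without the third shSTYK1 library, -0.61 (adjusted p = 0.0598). With a pseudocount of 0.1 it was -1.26. SOX18 passed the filter on low values through its control libraries only, so its p-value supports nothing here. KDR, whose values are given above, was below the filter and listed at 0 in all 3 shSTYK1 libraries. Every shSTYK1 library was below every control library for both markers, as for EDN1 and NRP2 and for 48.1% of the table. The part of other cells in these results was not tested. Of 16 markers of ductal epithelium and carcinoma, the table holds CDH1 and LCN2. Both were higher in shSTYK1 cells without overlap of the groups, as were 45.5% of the 995 genes. LCN2, a secreted iron-binding protein, was at 0.90, 1.02 and 1.44 in the controls, against 1.97, 2.73 and 4.97 with shSTYK1. Its log2 fold change was 0.94 (limma, adjusted p = 0.00687). As its first control library was below 1, LCN2 passed the filter only with its shSTYK1 libraries, and its p-value also supports nothing here. CDH1, which encodes E-cadherin, was below the filter, at 0.10, 0.27 and 0.28 in the controls, against 0.94, 0.85 and 0.90 with shSTYK1. The epithelial keratins and EPCAM have no row, so the label of the line could not be checked. In bulk RNA, fewer cells that express a gene and less RNA per cell cannot be told apart.

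The 3 genes lie on different chromosomes, and their surroundings in the table differ. Within 5 Mb of HEG1 the table holds 20 other genes, of which 19 were higher in shSTYK1 cells by the mean z-score (95%), against 49.7% of the 965 genes located in the genome. Of the 19 tested there, 18 were called higher and 1 lower in limma, against 51.2% and 44.5% of all 740 genes tested. LINC02035 passed the filter through its shSTYK1 libraries only, and none of the 19 had a larger log2 fold change than HEG1. Their median log2 fold change was 1.13, against 1.68 for HEG1. FSTL1, which encodes a secreted glycoprotein, was the one that fell, with a log2 fold change of -0.61, and is named after its value was seen. The table holds 18.1% of the 94 annotated protein-coding genes of this window, against 4.24% of 19951 in the genome. With a window of 2 Mb, 5 of 5 genes were higher, and with 10 Mb 26 of 28 were. Both plexin genes are among these neighbours, PLXNA1 at 1.93 Mb and PLXND1 at 4.55 Mb from HEG1. HEG1 and the plexin genes thus lie in a region where nearly every gene of the table was higher, and the part of the region in their values was not tested.

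The nearest genes of the table before HEG1 on chromosome 3 were PDIA5, a protein disulfide isomerase gene of the endoplasmic reticulum (log2 fold change 1.28, limma, adjusted p = 0.000178), the noncoding LINC02035 (0.58), which passed the filter on low values through its shSTYK1 libraries only, and the solute carrier gene SLC49A4 (1.13, adjusted p = 0.000119). Those after it were ZNF148, a zinc finger transcription factor gene (0.98, limma, adjusted p = 0.000407), CHST13, a chondroitin sulfotransferase gene below the filter, and TXNRD3, a thioredoxin reductase gene (1.22, adjusted p = 7.54e-05). CHST13 had means of 0.117 in control and 0.653 in shSTYK1 cells.

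None of the 68 other protein-coding genes within 5 Mb of NRP2 is in the table, and 2 of 103 are within 10 Mb, where the table holds 4.24% of those in the genome. The 3 nearest genes of the table on each side, between 5.1 and 29.6 Mb away, were all lower in shSTYK1 cells by the mean z-score, as were 485 of the 965 located genes. AOX1, an aldehyde oxidase gene, had a log2 fold change of -0.88, with means of 2.51 in control and 0.937 in shSTYK1 cells. As not every shSTYK1 library reached 1, AOX1 passed the filter only with its control libraries and is given no p-value. FKBP7, a prolyl isomerase gene, had a log2 fold change of -1.38 (limma, adjusted p = 9.54e-05). On the other side, the ubiquitin ligase gene MARCHF4 was at -1.31 (limma, adjusted p = 5e-05) and the tubulin gene TUBA4A at -1.59 (limma, adjusted p = 7.35e-05). HOXD13 and IKZF2, which encode transcription factors, were below the filter, with means of 0.29 and 0.203 in control and of 0.01 and 0.03 in shSTYK1 cells.

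Around EDN1, both directions were found. Of 5 table genes within 5 Mb, 4 were lower and 1 was higher by the mean z-score. DSP, which encodes the desmosome protein desmoplakin and is named after its value was seen, was the only lower one tested. At 4.75 Mb from EDN1, it had a log2 fold change of -3.64, a larger change than that of EDN1, and passed the filter through its control libraries only. NEDD9, which encodes a scaffold protein of focal adhesions, and GFOD1 were the nearest, at 0.908 and 1.2 Mb. Both were below the filter, NEDD9 with means of 0.467 and 0.0133 and GFOD1 with means of 0.79 and 0.32 in control and shSTYK1 cells. The read-through gene BLOC1S5-TXNDC5, whose reads may be shared with its parts, was also below the filter and listed at 0 in each shSTYK1 library, against a mean of 1.19 in control. The noncoding gene HULC rose, with a log2 fold change of 0.73 (limma, adjusted p = 0.00635), as did ALDH5A1, which encodes succinate semialdehyde dehydrogenase (0.84, adjusted p = 0.000568), and TRIM38, which encodes a ubiquitin ligase (0.62, adjusted p = 0.00166). The last 2 lie 12.2 and 13.7 Mb from EDN1.

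The genes whose pattern over the 6 libraries was most like that of each of the 3 genes were found from the deposited z-scores, by the Euclidean distance over 6 libraries. Most of any such likeness comes from the difference between the groups, on which the table was selected, so the distances are a description. EDN1 was nearest to GSDME (distance 0.138), CSRP2 (0.161), SCN9A (0.183), HSPA4L (0.201) and MTUS1 (0.237), against a median of 0.95 over the 498 other genes that were lower. GSDME encodes a gasdermin, a pore-forming protein, CSRP2 a LIM domain protein, SCN9A a voltage-gated sodium channel and HSPA4L a heat shock protein. Like EDN1, they had the second shSTYK1 library as their lowest. CSRP2 was at 11.21, 9.80 and 11.84 in the controls, against 4.65, 3.35 and 4.72 with shSTYK1, for example, and GSDME at 3.42, 2.85 and 3.34 and at 1.38, 0.94 and 1.33.

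NRP2 was nearest to MMP14 (0.115), which encodes a membrane-bound matrix metalloprotease, and to KIAA1549 (0.123), EYA2 (0.126), a transcription co-activator gene, and TPM1 (0.131), which encodes tropomyosin, against a median of 0.767 over 498 genes. The size of their changes varied. EYA2 had means of 5.38 in the controls and 0.0967 with shSTYK1 (log2 fold change -2.54), MMP14 of 1.61 and 0.11 (-1.24), KIAA1549 of 3.43 and 1.59 (-0.78) and TPM1 of 264 and 132. EYA2 and MMP14 passed the filter through their control libraries only, and the added 1 holds their log2 fold changes down. A z-score keeps the order and spacing of the libraries and not the size of the change.

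HEG1 was nearest to NQO1 (0.0809), a quinone reductase gene, then to TXNIP (0.117), which encodes a thioredoxin-binding protein, PIR (0.118), which encodes pirin, SDC4 (0.125), which encodes a cell-surface heparan sulfate proteoglycan, and LIPH (0.129), a lipase gene, against a median of 0.843 over 495 genes. NQO1 was at 168.68, 180.16 and 176.06 in the controls, against 422.90, 403.85 and 432.55 with shSTYK1, with a log2 fold change of 1.26. SDC4 had means of 58.1 in the controls and 120 with shSTYK1 (log2 fold change 1.04) and PIR of 22.4 and 55.5 (1.28). HEG1 had a larger log2 fold change than each of these 5 genes on the log2(value + 1) scale. That scale holds down low values, such as those of TXNIP (means of 1.27 in the controls and 4.36 with shSTYK1).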

How the data were processed

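Poly(A) RNA of 3 control and 3 shSTYK1 PANC-1 samples was sequenced (2 × 150 bp); groups come from the labels. The authors deposited z-scores: a score per gene and library, with mean 0 and SD 1 (divisor 6) over the 6 libraries, for 995 genes, read here as those selected on these libraries. The submitters' processing notes name RSEM, DESeq2 and GRCh38 (hg38); versions, annotation and the unit before scoring are not given in the sources used here. No depth is given, so no counting interval was computed.

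Values with 2 decimals were recovered by a whole-number search for the 6 values whose log(value + 1) gives the deposited scores (Python 3.11.15, numpy 2.4.6, numba 0.67.0; value + 1 up to 2000). It solved 994 genes, with recomputed scores within 5.0e-12, and was tested on simulated data. The smallest solution was used, multiplied in 13 genes so that no value fell below 0; that 1 was added before the logarithm is inferred from these solutions. Groups were compared with limma 3.58.1 (R 4.3.3; lmFit, eBayes), on the log2(value + 1) scale, in the 740 genes that reached 1 in 3 or more libraries, and p-values were adjusted by Benjamini-Hochberg over all 740; 254 recovered genes were below this filter. An adjusted p-value under 0.05 was called.

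The 3 genes and the lists were chosen with earlier results of these data known. Named genes are the 3 genes, list members in the table, the 5 genes nearest to each by z-score and the 3 nearest genes of the table on each side by start (GENCODE 29, GRCh38). 1 of the 5 genes nearest to NRP2 is not reported here. Promoter sequences are from RefSeq (GRCh38.p14); all 3 genes matched by symbol. Alternatives were another pseudocount, quantile normalization, rescaling by the median of ratios, other filters, each library left out, the replicate number as a block and the z-scores themselves. Plots used matplotlib 3.10.9.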

Additional observations from a re-analysis of the deposited data

How the results depend on the processing

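EDN1 and NRP2 stayed lower and HEG1 stayed higher in shSTYK1 cells under every alternative run. With each library left out in turn, the log2 fold change ranged from -1.39 to -1.18 for EDN1, from -2.45 to -2.34 for NRP2 and from 1.65 to 1.71 for HEG1. Rescaling by the median of ratios gave -1.69, -2.63 and 1.29, and quantile normalization -1.49, -2.26 and 1.48. Both scalings were computed on the recovered genes alone, which are read here as selected on these libraries. They therefore cannot show the scale of the whole libraries. The median log2 fold change of all genes tested was 0.54, and 0.30 and 0.55 under these scalings. Relative to it, EDN1 was at -1.85, -1.98 and -2.04, NRP2 at -2.95, -2.92 and -2.82, and HEG1 at 1.14, 0.99 and 0.92. The ratio of the group means gave -3.50 for NRP2 and 1.73 for HEG1, and a pseudocount of 0.1 gave -3.34 for NRP2. Both shrink the change of low values less.

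The counts of genes called ranged from 324 to 328 lower and from 365 to 378 higher with a library left out, and rescaling by the median of ratios gave 333 lower and 326 higher. With a filter of at least 5 in 3 libraries, 130 were lower and 194 higher of the 327 tested. With the main filter it was 329 lower and 379 higher of 740, so the stricter filter also left a larger part higher. Without a filter, 6 list members were lower, since KDR, SLIT2 and NTN1 were then tested. Of all 994 genes tested in that fit, 460 were lower and 455 higher. With a library left out, the list counts stayed at 3 lower and 3 higher. Among the single list and marker genes, GDF15 under quantile normalization and SOX18 without the third shSTYK1 library lost their call.

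The replicate numbers gave no sign of pairing the libraries. The deviations of same-numbered control and shSTYK1 libraries from their group means correlated with r = -0.225, 0.191 and 0.048 across 740 genes, which are not independent replicates. Those of differently numbered libraries correlated with r from -0.254 to 0.231. Whether the libraries were paired by design cannot be told from these values. With the replicate number as a block, 329 genes were lower and 385 higher, and no list or marker gene tested changed its call. Depth is unknown, so values near 0 have no detection limit.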
